A study of Homo sapiens with 16 samples.

Results

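The canonical histone genes encode the linker histone H1 and the core histones H2A, H2B, H3 and H4, which package DNA into nucleosomes. All genes of the deposited log2 value table whose symbol starts with HIST1H, HIST2H, HIST3H or HIST4H were taken. There were 70 of 34687 named genes: 6 of H1, 17 of H2A, 18 of H2B, 14 of H3 and 15 of H4. By their current RefSeq entries, 55 lie in the HIST1 cluster on chromosome 6, 11 in the HIST2 cluster and 3 in the HIST3 cluster on chromosome 1, and 1 (HIST4H4) on chromosome 12. Histone deacetylases are not included.

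Expression was measured on 16 Illumina bead arrays with RNA of HBL-1 and TMD8, 2 human lymphoma cell lines of the activated B-cell-like type of diffuse large B-cell lymphoma. Each line was treated for 8 h with vehicle (4 arrays), with MI-2 (3 arrays) or with z-VRPR-fmk (1 array). Of the 2 inhibitors, MI-2 is a small molecule and z-VRPR-fmk is peptide-based. Neither doses nor the vehicle's composition were stated in the labels. Each group is 1 cell line, and whether its arrays stem from separate cultures is not stated, so a p-value here weighs a difference against the spread among arrays, part or all of which may be technical.

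Most canonical histone genes are transcribed in S phase, when new DNA has to be packaged, and their messenger RNAs end in a stem-loop in place of a poly(A) tail. The stem-loop is bound by SLBP, and the gene clusters are activated through NPAT, a substrate of cyclin E with CDK2. A part of these genes can also give polyadenylated transcripts, which are known from cells that leave the cycle or differentiate. Labelling kits of the kind named here prime on poly(A) tails, so the levels below are those of whatever histone RNA such a kit copies. The part that this plays in any result was not tested.

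The promoters of a histone type share short motifs, which is why 6 promoters are shown. They are the promoter of the member with the largest difference between the lines in each type, and that of HIST1H2BN, an H2B gene that did not pass the test and was chosen after its values were seen. Each is the 250 bases before the gene's start from RefSeq (GRCh38.p14), written 5′ to 3′ along the gene. The capitals mark, on either strand, the octamer ATTTGCAT that POU2F1 binds, the CCAAT box (CCAAT), the TATA box (TATAAA) and the H1 box (AAACACA). HIST1H1C lies at chr6:26056471-26056720 on the minus strand, and HIST1H2AC at chr6:26123922-26124171 on the plus strand. HIST1H2BD lies at chr6:26157871-26158120 on the plus strand, and HIST1H3H at chr6:27809801-27810050 on the plus strand. HIST1H4H lies at chr6:26285535-26285784 on the minus strand, and HIST1H2BN at chr6:27838319-27838568 on the plus strand.
HIST1H1C: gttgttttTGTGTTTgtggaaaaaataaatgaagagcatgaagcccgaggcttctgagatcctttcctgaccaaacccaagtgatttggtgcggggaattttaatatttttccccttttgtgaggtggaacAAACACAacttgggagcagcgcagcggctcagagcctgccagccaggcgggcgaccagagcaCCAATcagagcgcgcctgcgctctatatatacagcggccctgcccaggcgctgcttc
HIST1H2AC: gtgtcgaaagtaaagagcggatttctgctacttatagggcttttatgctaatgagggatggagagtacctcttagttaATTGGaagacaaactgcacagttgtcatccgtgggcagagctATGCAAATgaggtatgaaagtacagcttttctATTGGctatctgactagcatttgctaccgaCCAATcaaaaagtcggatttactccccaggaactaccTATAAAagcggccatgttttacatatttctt
HIST1H2BD: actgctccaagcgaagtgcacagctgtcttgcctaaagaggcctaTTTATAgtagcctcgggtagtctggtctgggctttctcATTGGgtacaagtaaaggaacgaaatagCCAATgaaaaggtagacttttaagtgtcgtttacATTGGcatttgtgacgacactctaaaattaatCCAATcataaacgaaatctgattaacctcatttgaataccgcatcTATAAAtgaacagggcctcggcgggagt
HIST1H3H: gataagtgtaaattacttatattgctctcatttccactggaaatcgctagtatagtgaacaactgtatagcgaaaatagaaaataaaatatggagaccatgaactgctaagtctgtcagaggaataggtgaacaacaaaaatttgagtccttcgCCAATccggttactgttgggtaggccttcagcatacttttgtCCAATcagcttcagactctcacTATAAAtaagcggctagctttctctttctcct
HIST1H4H: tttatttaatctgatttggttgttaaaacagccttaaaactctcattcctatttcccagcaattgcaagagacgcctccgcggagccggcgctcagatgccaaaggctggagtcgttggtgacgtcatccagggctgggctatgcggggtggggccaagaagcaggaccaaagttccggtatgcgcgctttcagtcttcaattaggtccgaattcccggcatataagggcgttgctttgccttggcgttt
HIST1H2BN: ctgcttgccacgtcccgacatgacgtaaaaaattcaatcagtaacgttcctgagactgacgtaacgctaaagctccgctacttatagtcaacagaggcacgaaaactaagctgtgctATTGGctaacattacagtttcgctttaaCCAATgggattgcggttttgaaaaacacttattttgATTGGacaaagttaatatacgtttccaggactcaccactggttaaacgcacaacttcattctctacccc

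The table of promoters held 65 of the 70 genes. Over the window from 250 bases before to 50 after the start, the octamer was found in 11 of 16 H2A and 14 of 18 H2B promoters, in 1 of 12 of H3, and in 0 of 6 of H1 and 0 of 13 of H4. Of all 27305 promoters of the same length, 1.8% held it. The CCAAT box was found in every H1, H2A, H2B and H3 promoter and in 3 of 13 of H4, against 35.7% of all promoters. The H1 box was found in 6 of 6 H1 promoters, in 1 of 16 of H2A, in 2 of 12 of H3 and in none of H2B or H4, against 5.76% of all. The TATA box was found in 43 of the 65, against 12.0% of all. No motif is contained in another, a promoter counts once for a motif however often it holds it, and a match only describes the sequence. The HIST1H4H promoter held none of the 4, and those of HIST1H2BD and HIST1H2BN both lacked the octamer.

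Levels below are log2 intensities after background correction and quantile normalization, in which all genes had a median of 5.88 to 5.91 on every array. A gene is called detected on an array where its detection p was under 0.05. Of the 70 histone genes, 12 were detected on all 16 arrays, 15 on none and 16 on 1 or 2. The 12 were HIST1H1C of H1, HIST1H2AC, HIST2H2AA3, HIST2H2AA4 and HIST2H2AC of H2A, HIST1H2BD, HIST1H2BK and HIST2H2BE of H2B, and HIST1H4C, HIST1H4K, HIST2H4A and HIST2H4B of H4. No H3 gene was among them. Genes known from the testis were at background: HIST1H1T, HIST1H2BA and HIST3H3 were detected on no array and HIST1H2AA on 1.

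The number of histone genes detected separated the lines. Each HBL-1 array detected 16 to 22 of the 70, and each TMD8 array 35 to 40. Counted over the 8 arrays of a line, 38 were detected at least once in HBL-1 and 51 in TMD8, and 12 and 28 on all 8. All named genes together did not split in this way, with 12935 to 15064 of 34588 detected per HBL-1 array and 13641 to 15205 per TMD8 array. The share of probes detected per array ran from 34.1% to 40.8%, and the 2 arrays with the lowest shares were HBL-1 arrays numbered 2, with vehicle and MI-2.

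**Figure D1:**
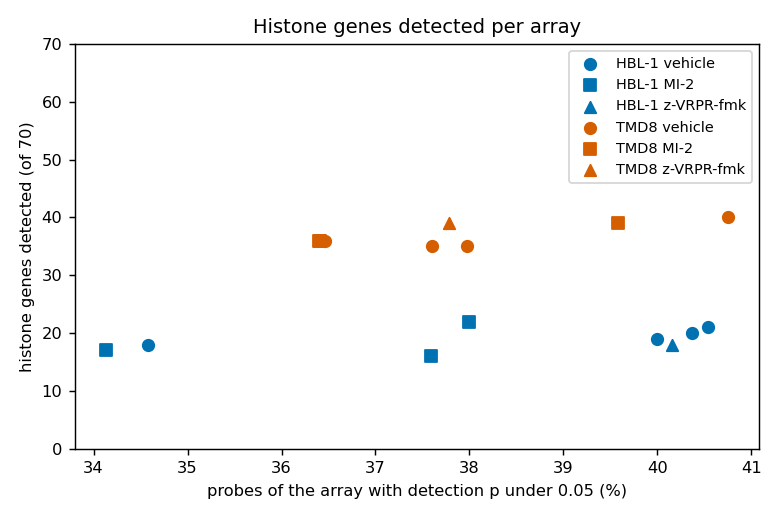
Number of the 70 histone genes detected on each array against the share of all probes that the array detected. The 8 HBL-1 arrays (blue) lie between 16 and 22 and the 8 TMD8 arrays (orange) between 35 and 40, over overlapping ranges of shares; 2 of the 3 TMD8 MI-2 arrays lie on each other.

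Of the 70 genes, 39 were detected on at least 3 arrays and entered the test with 17544 other genes: 2 of H1, 9 of H2A, 10 of H2B, 10 of H3 and 8 of H4. A gene could pass through its TMD8 arrays alone, so counts over these 39 are not counts over the family. Values for all 70 and for the 12 detected everywhere are therefore set beside them.

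With vehicle, TMD8 cells had higher levels of most measured canonical histone genes than HBL-1 cells. In limma's test on the vehicle arrays, 30 of the 39 genes were higher in TMD8 and 0 were lower at an adjusted p under 0.05, where 37.1% of all genes tested differed, 18.5% higher and 18.6% lower. At an unadjusted p under 0.05, 33 of the 39 differed, where 43.7% of all genes did. The difference lay above 0 for 37 of the 39, against 50.6% of all genes, and above 1 log2 for 23, against 6.04%. On 30 of the 39 all TMD8 vehicle arrays lay above all HBL-1 vehicle arrays, where 18.6% of all genes did so. The median difference was 1.05 log2 (range -0.41 to 3.57), against 0.00 for all genes. It was also 1.05 with the 13 genes not detected on any HBL-1 vehicle array set at a bound, the TMD8 mean against the lowest level that counted as detected. That median is the value of HIST2H4A, detected on all arrays, and no gene set at a bound crossed it. Its staying the same therefore does not show how far background limits the differences. By type, 1 of 2 H1, 8 of 9 H2A, 8 of 10 H2B, 7 of 10 H3 and 6 of 8 H4 genes were higher. Over the tested genes alone, the median difference was 1.47 for H2A, 1.63 for H2B, 0.62 for H3 and 0.92 for H4. The 13 genes not detected on any HBL-1 vehicle array enter these medians with background values for HBL-1. In bulk RNA, more cells that express a gene and more RNA per cell cannot be told apart.

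With no detection filter, 31 of all 70 genes were higher in TMD8 and 0 were lower, where 9.05% of all genes were higher and 9.01% lower. These were 1 of 6 H1, 9 of 17 H2A, 8 of 18 H2B, 7 of 14 H3 and 6 of 15 H4 genes, and the median over the 70 was 0.25. The vehicle arrays of TMD8 all lay above those of HBL-1 for 33 of the 70, where 10.4% of all genes did, and 23 were over 1 log2 higher, where 3.07% of all genes were. Among the 12 detected on all arrays, 11 were higher, where 25.3% of such genes were, and their median was 1.92. Of these 12, 10 were over 1 log2 higher, where 6.83% of such genes were, and 11 had vehicle arrays without overlap, where 23.4% did.

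**Figure D2:**
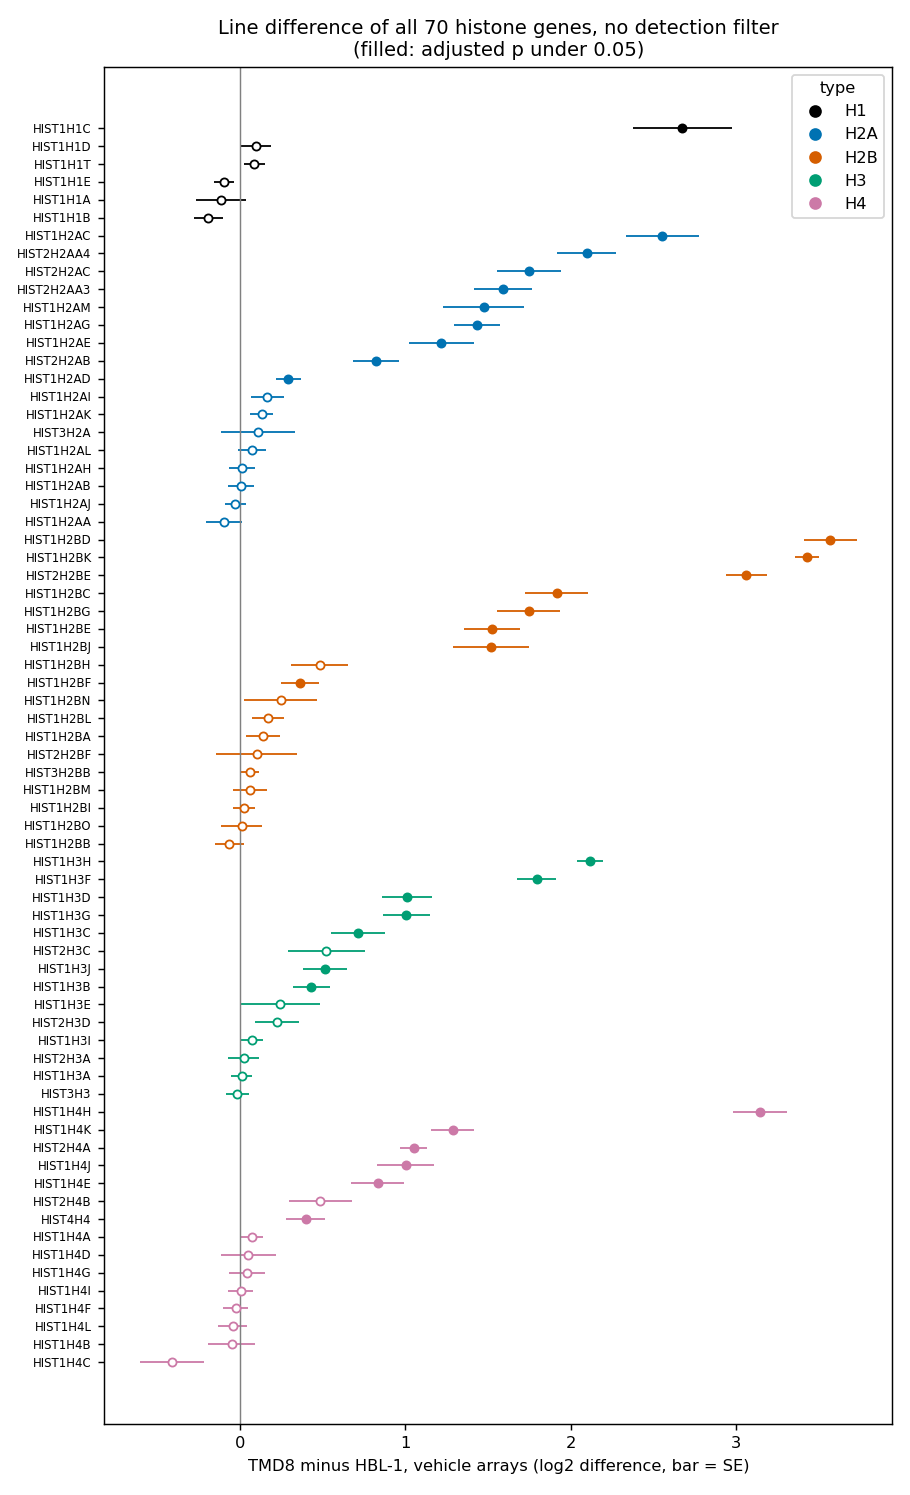
Difference between TMD8 and HBL-1 vehicle arrays (log2, with its SE) for all 70 histone genes with no detection filter, coloured by histone type and ordered by size within it. The 31 filled points, at an adjusted p under 0.05, all lie above 0, and the largest is HIST1H2BD at 3.57.

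Among the linker histones, HIST1H1C (the H1.2 protein) carried the difference. Its HBL-1 vehicle arrays read 8.94, 8.52, 9.56 and 9.97, and its TMD8 vehicle arrays 12.03, 11.94, 12.03 and 11.69. The groups were far apart, and the HBL-1 arrays were the more spread (9.25 ± 0.65 against 11.92 ± 0.16, SD, n = 4). The difference was 2.67 log2 (SE 0.28, limma adjusted p = 7.32e-07), or 6.38-fold. HIST1H1A, which encodes H1.1, was near background in both lines, at 4.58 ± 0.32 in HBL-1 and 4.46 ± 0.18 in TMD8 (SD, n = 4), a difference of -0.11 (SE 0.16, limma adjusted p = 0.649). The other 4 H1 genes, HIST1H1B, HIST1H1D, HIST1H1E and HIST1H1T, were detected on 2 arrays at most.

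H2A genes of both large clusters were among those higher in TMD8. HIST1H2AC read 5.56, 5.80, 6.52 and 5.81 on the HBL-1 vehicle arrays and 8.24, 8.39, 8.81 and 8.47 on those of TMD8. No array of one line reached the other, and the difference was 2.55 (SE 0.21, limma adjusted p = 5.09e-08), or 5.87-fold. In the HIST2 cluster, HIST2H2AC read 7.87, 7.56, 8.15 and 8.19 in HBL-1 and 9.78, 9.42, 9.99 and 9.59 in TMD8, a difference of 1.75 (SE 0.19, limma adjusted p = 1.09e-06). HIST2H2AA3 and HIST2H2AA4 are near-identical copies that a probe may not tell apart, so the pair is uncertain as to which copy was measured. HIST2H2AA4 read 8.12, 8.23, 8.37 and 8.55 in HBL-1 and 10.44, 10.28, 10.71 and 10.22 in TMD8 (difference 2.09, SE 0.18, limma adjusted p = 5.68e-08). For HIST2H2AA3 the means were 8.50 ± 0.26 and 10.09 ± 0.32 (SD, n = 4), and its other probe gave the same difference of 1.59.

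Other H2A genes were near background in HBL-1. HIST1H2AG was not well above background on any HBL-1 array and read 6.08, 5.97, 6.28 and 5.53 on the TMD8 vehicle arrays, which makes it at least 2.52-fold higher (limma adjusted p = 5.62e-07). A bound of this kind sets the TMD8 mean against the lowest level that counted as detected on the HBL-1 arrays. Its other probe, detected on 3 arrays, differed by 0.23. HIST1H2AM and HIST1H2AE were higher by 1.47 and 1.22, with 3 and 1 of the 4 HBL-1 vehicle arrays detected. HIST2H2AB was at least 1.63-fold higher, and HIST3H2A did not pass the test (0.11, limma adjusted p = 0.761). Of the 8 H2A genes below the detection filter, HIST1H2AD passed the test without it (0.29) and the other 7 did not.

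The largest differences of the family were in H2B. HIST1H2BD read 5.69, 5.57, 6.13 and 5.77 on the HBL-1 vehicle arrays and 9.39, 9.25, 9.65 and 9.13 on those of TMD8. The gap between the lines was many times the spread within them, 3.57 log2 (SE 0.16, limma adjusted p = 2.19e-11), or 11.9-fold. Another probe of HIST1H2BD differed by 2.95, and the last was detected on no array and differed by 0.05.

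HIST1H2BK had 9.27, 9.38, 9.43 and 9.30 in HBL-1 and 12.96, 12.68, 12.67 and 12.76 in TMD8. With SDs of 0.07 and 0.13 (n = 4), its difference of 3.43 (SE 0.10), or 10.7-fold, had the smallest p of the family (limma adjusted p = 6.93e-14). The other probe of HIST1H2BK differed by 4.30. HIST2H2BE, on chromosome 1, read 5.18, 5.25, 5.21 and 5.06 in HBL-1 and 7.99, 8.03, 8.64 and 8.27 in TMD8. It was low but detected on every HBL-1 array, and 8.34-fold higher in TMD8 (3.06 log2, SE 0.14, limma adjusted p = 1.45e-11).

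HIST1H2BC, HIST1H2BG and HIST1H2BJ were higher by 1.91, 1.74 and 1.52 log2, with 2, 1 and 3 of the 4 HBL-1 vehicle arrays detected. HIST1H2BE was not well above background on any HBL-1 vehicle array, which makes it at least 2.22-fold higher in TMD8. HIST1H2BH, likewise at background in the HBL-1 vehicle arrays, was at least 1.20-fold higher, passed the test with an adjusted p of 0.0382 by limma and missed it in 10 of the alternatives. HIST1H2BN (0.25, limma adjusted p = 0.424) and HIST2H2BF (0.10, limma adjusted p = 0.802) did not pass.

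Among the H3 genes, HIST1H3D was detected on all 8 TMD8 arrays and on no HBL-1 array. HIST1H3H read 4.45, 4.49, 4.55 and 4.69 on the HBL-1 vehicle arrays, 1 of which detected it, and 6.77, 6.64, 6.71 and 6.52 on those of TMD8. The difference was 2.11 (SE 0.10, limma adjusted p = 5.09e-11), or 4.33-fold. HIST1H3F, detected on all 4 HBL-1 vehicle arrays, read 4.62, 5.01, 5.16 and 4.93 there and 6.996, 6.73, 6.65 and 6.51 in TMD8 (1.79, SE 0.13, limma adjusted p = 1.01e-08). The lines were well separated for both genes. HIST1H3D, HIST1H3C, HIST1H3J and HIST1H3B were not well above background on any HBL-1 vehicle array and passed the test, at least 1.76-fold, 1.33-fold, 1.20-fold and 1.08-fold higher in TMD8. HIST1H3G, detected on 1 HBL-1 vehicle array, was 2.01-fold higher, and HIST1H3E, HIST2H3D and HIST2H3C did not pass. HIST2H3C and HIST2H3A are near-identical copies and remain uncertain.

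Almost all H4 genes encode the same protein, and 6 of the 8 measured were higher in TMD8. HIST1H4H was not well above background on any HBL-1 array, with vehicle values of 4.42, 4.38, 4.56 and 4.56, and read 7.54, 7.59, 7.98 and 7.38 in TMD8. It was at least 7.96-fold higher there (limma adjusted p = 1.24e-10). HIST1H4K read 6.29, 6.26, 6.33 and 6.52 in HBL-1 and 7.92, 7.70, 7.45 and 7.48 in TMD8 (1.29, SE 0.14, limma adjusted p = 1.25e-06).

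HIST1H4C went the other way, without passing the test. Its levels were 12.88, 12.71, 12.95 and 12.68 in HBL-1 and 12.73, 11.83, 12.29 and 12.73 in TMD8, which overlap. The difference was -0.41 (SE 0.19, limma adjusted p = 0.109). HIST2H4A and HIST2H4B are near-identical copies and uncertain as to which was measured. HIST2H4A differed by 1.05 (SE 0.11, limma adjusted p = 5.41e-07). HIST2H4B differed by 0.49 and missed the threshold (SE 0.19, limma adjusted p = 0.0535), although its 4 TMD8 vehicle arrays, at 6.12, 6.28, 6.12 and 5.93, lay above its 4 HBL-1 arrays, at 5.72, 5.62, 5.74 and 5.43.

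**Figure D3:**
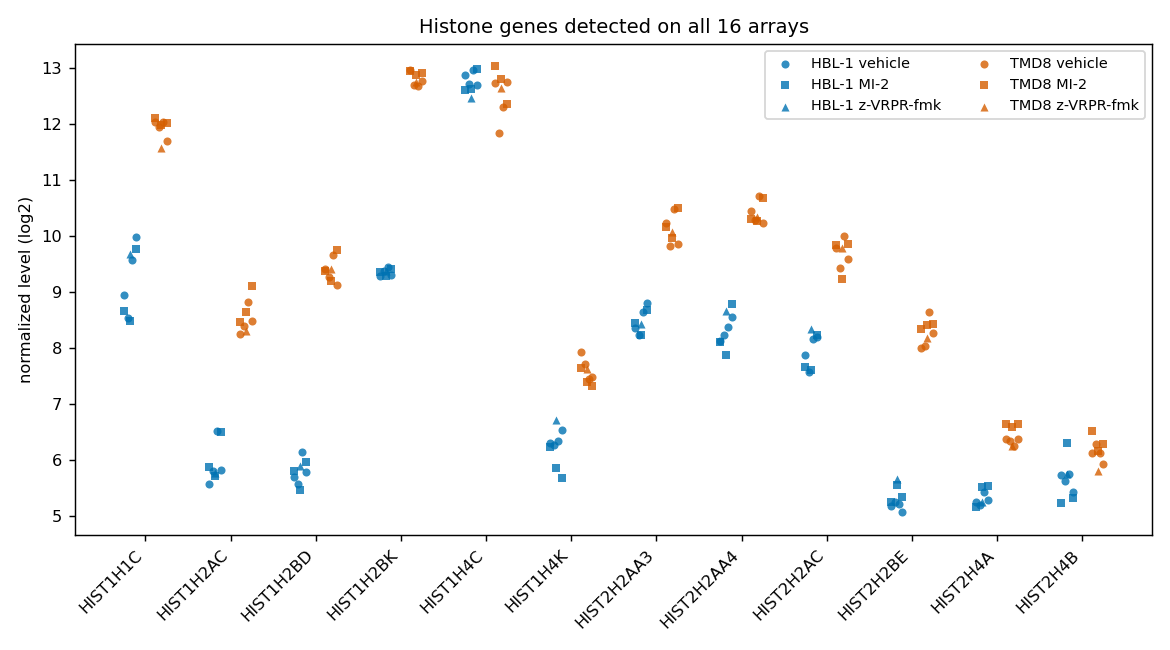
Normalized level (log2) of the 12 histone genes detected on all 16 arrays, 1 point per array. For 10 of the 12, all 8 TMD8 arrays (orange) lie above all 8 HBL-1 arrays (blue); HIST1H4C and HIST2H4B overlap, and levels are not comparable between genes because each has its own probe.

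The other arrays were compared in the same way. All 8 TMD8 arrays lay above all 8 HBL-1 arrays for 25 of the 39 genes, where 12.4% of all genes tested did. Over all 70 genes with no filter it was also 25, where 6.33% did, and among the 12 detected on all arrays it was 10, where 16.4% did.

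Between the MI-2 arrays of the lines, 3 against 3, 29 of the 39 were higher in TMD8 at an adjusted p under 0.05 by limma, where 17.2% of all genes were, and the median was 1.22. With no filter 29 of the 70 were, where 8.24% of all genes were (median 0.24), and of the 12 detected on all arrays 11 were, where 23.7% were (median 1.98). The single z-VRPR-fmk arrays allow no test of their own. Between them, 18 of the 39 were over 1 log2 higher in TMD8, where 7% of all genes were, and the median was 0.97. Of the 70 genes 18 were, where 3.57% of all genes were, and of the 12 detected on all arrays 8 were, where 7.85% were. The median level of the 39 genes was 4.41 to 4.69 on the HBL-1 arrays and 5.77 to 6.17 on the TMD8 arrays.

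How large the difference appeared rested on the processing. On the authors' log2 values its median over the 39 genes was 0.38, and with no background correction 0.46, with 29 genes called higher in both, where 18.8% and 18.6% of all genes were.

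The lists of related genes below were chosen with earlier results of these data known. Of 11 measured variant histone genes, most of which are also made outside S phase, 3 were higher and 1 lower in TMD8, with a median of -0.09. Among all genes tested, 18.5% were higher and 18.6% lower. H3F3B, which encodes the replacement histone H3.3, read 7.28, 7.49, 7.15 and 7.32 in HBL-1 and 9.01, 9.13, 9.11 and 9.10 in TMD8 (1.78, SE 0.10, limma adjusted p = 5.89e-10). H2AFJ was higher by 1.70 (limma adjusted p = 9.13e-08) and H2AFV by 0.35 (limma adjusted p = 0.0478). H2AFX, the variant phosphorylated at DNA breaks, fell from 8.06 to 6.78 (-1.28, SE 0.24, limma adjusted p = 0.000396). H2AFZ (-0.18) and H1FX (0.43) did not pass, and H1F0 was not measured above background.

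Of 27 measured genes of histone gene transcription and histone mRNA processing, 5 were higher and 8 lower in TMD8, with a median of 0.02. Over all genes tested the shares were 18.5% higher and 18.6% lower. NPAT, the activator of the clusters, read 6.35, 5.56, 6.22 and 6.07 in HBL-1 and 4.68, 4.41, 5.01 and 4.94 in TMD8 (-1.29, SE 0.23, limma adjusted p = 0.000202). In TMD8 it lay near background, and on vehicle array 2 below HIST1H2BA (4.62), which was detected on no array. The size of the NPAT difference is therefore uncertain. HINFP, which binds H4 promoters, was lower by 1.58 log2, from 7.50 to 5.92 (limma adjusted p = 1.24e-06). POU2AF1, the B cell coactivator that joins POU2F1 on octamers, fell from 10.12 to 6.94 (-3.19, SE 0.15, limma adjusted p = 3.28e-11).

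SLBP differed by -0.54 (SE 0.18, limma adjusted p = 0.0271), from 9.56 to 9.02. CSTF2, of the cleavage stimulation factor, differed by -0.80, while SYMPK and CSTF3, which also act in cleavage of the 3′ end, were higher by 1.05 and 0.94. CCNE1, a cyclin E, was higher by 0.90 and ZNF473, which works with the U7 particle, by 0.62. Of 22 measured chaperones and deposition factors, 4 were higher, among them NASP (1.20) and DAXX (1.01), NAP1L1 (0.48) and SPTY2D1 (0.44). In the same list 6 were lower, among them RBBP4 (-1.27), MCM2 (-0.98), CHAF1A (-0.72) and ASF1A (-0.69). The shares of all genes tested were 18.5% higher and 18.6% lower here too.

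Of 47 measured genes of S phase, 5 were higher, 21 lower and 21 not past the test in TMD8 (median -0.39), and of 28 genes of mitosis 1 was higher and 9 were lower (median -0.32), where 18.5% of all genes were higher and 18.6% lower. The part of cell cycle stage in the histone difference was not tested.

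**Figure D4:**
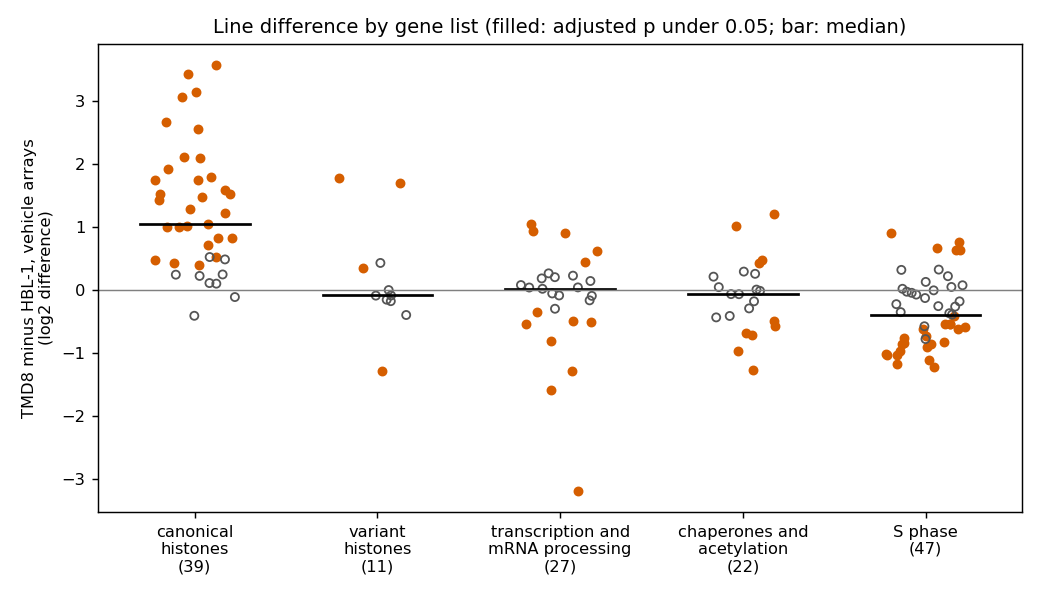
Difference between TMD8 and HBL-1 vehicle arrays (log2) of each measured gene, by list, with a bar at the list's median. The canonical histones have a median of 1.05 and no filled point (adjusted p under 0.05) below 0, while the S phase list has 21 filled points below 0 and 5 above.

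The labelled cell type was checked on its markers. Of 8 B cell markers 7 were detected on all 16 arrays and PAX5 on 7, and of 10 of the activated B-cell-like type 8 were detected on all. In limma's test on the vehicle arrays, 4 B cell markers were lower and 2 higher in TMD8, and of the other 10, 3 were lower and 3 higher. The summed B cell markers ran from 14.246 to 14.395 log2 in HBL-1 and from 13.664 to 13.855 in TMD8. Those of the activated B-cell-like type ran from 13.795 to 14.087 and from 13.393 to 13.565. None of the markers of T, NK, myeloid or epithelial cells or of fibroblasts was detected on all arrays, and CD3D, CD3E, CD3G, CD7, NKG7, NCR1, CD33, S100A9, KRT8, KRT18, COL3A1, PDGFRB and LUM were detected on none. Some others differed between the lines in limma's test. EPCAM read 7.95 ± 0.39 in HBL-1 and 4.33 ± 0.11 in TMD8 (SD, n = 4), and TACSTD1, its older name with a probe of its own, 8.90 and 4.30. CDH1 read 4.32 ± 0.17 in HBL-1 and 9.21 ± 0.19 in TMD8, KRT19 4.46 and 5.17, CD5, which some B cells carry, 4.23 and 5.70, and CD8A 4.72 and 4.24. In the vehicle arrays, the summed T cell markers ran from 7.57 to 7.64 log2 in HBL-1 and from 7.72 to 7.95 in TMD8, with 1 of 4 measured markers higher and 1 lower. The summed epithelial markers ran from 9.36 to 10.11 and from 9.24 to 9.64, with 2 of 4 measured higher and 2 lower. Of the NK cell, myeloid and fibroblast lists no marker passed the test, and the part of any of these lists in the histone difference was not tested.

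Neither inhibitor gave a histone gene past the threshold. In HBL-1, 0 of 39 genes passed between MI-2 and vehicle in limma's test, where 0.0114% of all genes did, and 1 of the 39 had an unadjusted p under 0.05, where 5.34% of all genes did. The median change was -0.06 (range -0.43 to 0.25), and 12 of the 39 lay above 0, against 46.2% of all genes. Of the 39, 13 were detected on no HBL-1 vehicle array, so these values partly describe background. Over the 12 genes detected on all arrays the HBL-1 median was also -0.06, and over all 70 it was -0.006, with 0 passing in both. In TMD8, 0 passed, where 0% of all genes did, and 2 had an unadjusted p under 0.05, where 4.64% did. With array numbers as a block, which pair the vehicle and MI-2 arrays of a line, 1 of the 39 in HBL-1 and 4 in TMD8 had an unadjusted p under 0.05, where 8.24% and 6.77% of all genes did, and 0 passed in either. In TMD8 the median was 0.11 (range -0.32 to 0.49), and 29 of the 39 lay above 0, against 47.8% of all genes. There the median was 0.12 over the 12 genes and 0.06 over all 70, with 0 passing in both. The median SE of a gene's change was 0.18 in each line, so changes of about this size could not be told from the spread of the arrays. Larger ones did not pass either: -0.43 for HIST1H4K in HBL-1 and 0.49 for HIST2H3C in TMD8. The test thus does not exclude changes of such sizes.

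The gene with the smallest p in HBL-1 was HIST1H4K. Its vehicle arrays read 6.29, 6.26, 6.33 and 6.52, its MI-2 arrays 6.23, 5.86 and 5.67, and its z-VRPR-fmk array 6.71. All 3 MI-2 values lay below all vehicle values, with a change of -0.43 (SE 0.15, limma adjusted p = 0.854). It was 1 of the 39 without overlap, where 6.09% of all genes had none. HIST4H4 came next, at 0.25 (SE 0.14, limma adjusted p = 0.933). It was detected on 0 of the 4 vehicle and 1 of the 3 MI-2 arrays of HBL-1, so its change was read near background.

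In TMD8 it was HIST2H4A, at 6.37, 6.34, 6.25 and 6.37 with vehicle, 6.63, 6.58 and 6.64 with MI-2 and 6.24 with z-VRPR-fmk. The MI-2 arrays lay above the others by a narrow margin, with a change of 0.29 (SE 0.12, limma adjusted p = 0.999). It too was 1 of the 39 without overlap, where 5.57% of all genes had none. HIST1H3B followed at -0.32 (SE 0.14, limma adjusted p = 0.999). It was detected on 3 of the 4 vehicle and 0 of the 3 MI-2 arrays of TMD8, so that change too was read near background.

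Averaged over the lines, 0 of the 39 passed, where 0.00569% of all genes did, with 2 at an unadjusted p under 0.05, where 5.76% were (with the block 3, where 7.81% were). The median was 0.05 (range -0.31 to 0.21), and -0.09 with arrays scaled to their medians, where all genes had -0.26. The smallest p-values were again those of HIST1H4K (-0.31, SE 0.11, limma adjusted p = 0.805) and HIST2H4A (0.20, SE 0.08, limma adjusted p = 0.853). The 10 H2B genes were between 0.01 and 0.21, and the H3 genes between -0.15 and 0.21. HIST1H4C, the gene with the brightest probe of the family, read 12.61, 12.62 and 12.97 with MI-2 in HBL-1 and 13.02, 12.80 and 12.34 in TMD8, which overlap the vehicle values of each line.

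The lines were also compared in their response. The MI-2 change of 0 of 39 genes differed between the lines by the interaction test, where 0% of all genes did, with 0 of the 39 at an unadjusted p under 0.05, where 4.08% of all genes were (with the block 2, where 6.95% were). The median of TMD8 minus HBL-1 was 0.17, with 32 of the 39 above 0, against 51.5% of all genes. The smallest p-values were those of HIST1H3F (0.42, SE 0.20) and HIST1H2AG (0.45, SE 0.22), both with a limma adjusted p of 0.999. In HBL-1, HIST1H2AG was detected on no array, and HIST1H3F on 4 of the 4 vehicle and 1 of the 3 MI-2 arrays. Both were thus read near background in that line.

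The z-VRPR-fmk effect was fitted from a single array of each line as 1 value for both. For it, 0 of 39 passed, where 0.00569% of all genes did. None of the 39 had an unadjusted p under 0.05 in limma's test, where 4.2% of all genes did (with the block 1, where 3.4% did). The median was -0.06 (range -0.42 to 0.23), and 14 of the 39 lay above 0, against 49.2% of all genes. HIST1H2BC had the smallest p. It read 4.40 with z-VRPR-fmk and 4.61, 4.27, 4.48 and 4.76 with vehicle in HBL-1, and 5.73 against 6.38, 6.30, 7.04 and 6.06 in TMD8. The array was below all vehicle arrays in TMD8 and among them in HBL-1, with a fitted change of -0.42 (SE 0.22, limma adjusted p above 0.999).

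HIST1H3G was next, at -0.30 (SE 0.17), and neither it nor HIST1H2BC was detected on the HBL-1 z-VRPR-fmk array. Between the inhibitors, both given for 8 h at doses not stated here, 0 of 39 passed, where 0.0171% of all genes did, and 3 had an unadjusted p under 0.05, where 7.5% did (with the block 2, where 3.83% did). The median of MI-2 minus z-VRPR-fmk was 0.08 (range -0.48 to 0.49), with 25 of the 39 above 0, against 49.1% of all genes. Its sign was not stable: it was -0.01 with the block and -0.02 with arrays scaled to their medians. HIST1H4K had the smallest p (-0.48, SE 0.17, limma adjusted p = 0.541), followed by HIST2H4A (0.27, SE 0.12, limma adjusted p = 0.642). These comparisons share the vehicle or MI-2 arrays and are not independent of each other. They do not show that the inhibitors act alike on these genes.

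**Figure D5:**
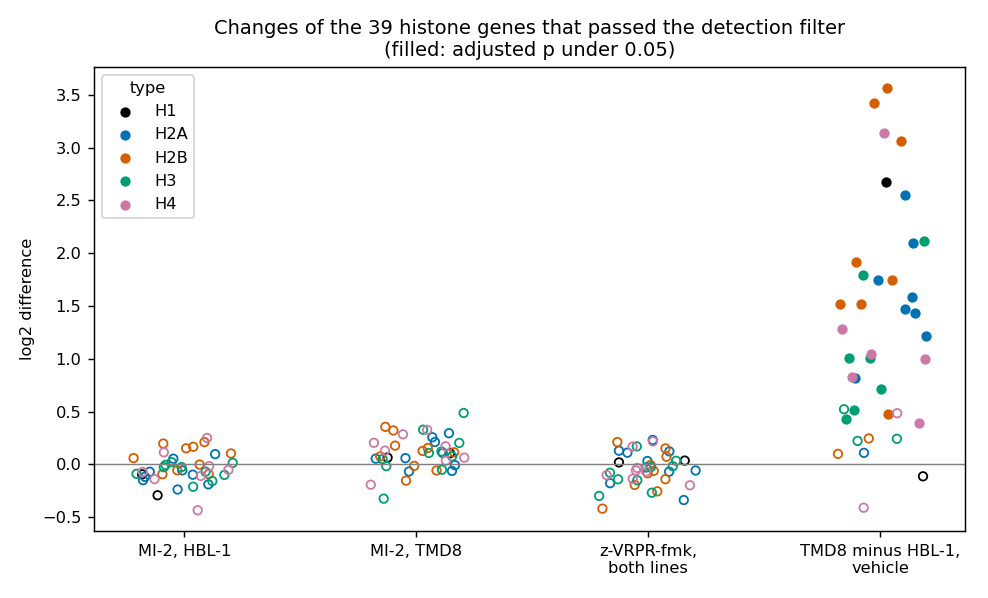
Fitted log2 difference of each of the 39 tested histone genes with MI-2 in each line, with z-VRPR-fmk over both lines, and between the lines with vehicle, coloured by histone type. No point of the treatments is filled (adjusted p under 0.05) and all lie between -0.43 and 0.49, while 30 of the 39 line differences are filled.

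The related lists held no call in a treatment either. With MI-2, averaged over the lines, the median was -0.10 for the variant histones, -0.03 for transcription and mRNA processing, -0.01 for chaperones, -0.11 for S phase and -0.14 for mitosis, beside -0.01 for all genes. SLBP changed by -0.17 (limma adjusted p = 0.910), NPAT by 0.27 (limma adjusted p = 0.892), H2AFZ by -0.10 (limma adjusted p = 0.924), H2AFX by -0.10 (limma adjusted p = 0.960) and H3F3B by -0.12 (limma adjusted p = 0.894), none of them past the threshold.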

How the data were processed

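The deposited files held, per the file headers, a linear signal intensity and a detection p-value for each of 47323 probes on each array, with no normalization by the authors (medians of 82.5 to 103 per array). A further table that the authors deposited gives log2 values by gene name, without saying how they were made. The submitters' processing notes name Partek, and biotinylated cRNA was made with a MessageAmp kit, per the labels. No slide or genome build is named.

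Probe identifiers of the intensities were matched to the gene names of the log2 table by their values, within 0.02 log2 over all 16 arrays. Of 34687 names 34680 matched, 26214 of them to 1 probe and 8466 to 2 or more. After shuffling the arrays, 0 names matched a single probe. The matches to 2 or more probes, searched for separately, had no such check. Of the histone genes 66 had 1 probe and 4 had 2 or more (HIST1H2AG, HIST1H2BD, HIST1H2BK and HIST2H2AA3). Intensities were corrected and quantile normalized with limma's neqc (version 3.58.1, R 4.3.3; offset 16). A probe was kept if detected (p under 0.05) on 3 or more arrays, and of several probes of a gene the brightest on average was used, giving 17583 genes. Spike-in controls were left out. Differences were tested with limma (lmFit, eBayes), two-sided, with Benjamini-Hochberg adjusted p-values over all genes and a threshold of 0.05. Comparisons of MI-2 with vehicle and of the lines came from 1 model of the 6 groups. The comparisons with z-VRPR-fmk came from a separate model, in which its effect was taken as equal in both lines. A line difference in that effect therefore enters the spread of that model. Only the comparison of the lines was checked on simulated data, with the same spread for every gene and independent arrays. The treatment comparisons had no such check. Precision is limited by the number of arrays.

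The members and lists were chosen with earlier results of these data known. Genes were named by rule: the 2 highest of each histone type, up to 6 per direction past the threshold in a comparison or else the 2 with the smallest p, up to 4 per direction of each related list, SLBP, NPAT and 5 variant histone genes; other members are named to account for the family. Vehicle and MI-2 arrays of the same number deviated together within each line (correlations of 0.16 to 0.31 over genes), so the numbers pair them; between the lines they did not (-0.10 to 0.16). With the pairing as a block no histone gene passed in a treatment comparison, as without it. Of other genes, the block left 0 past the threshold in each, where 2 (MI-2, HBL-1), 1 (MI-2, mean), 1 (z-VRPR-fmk) and 3 (MI-2 against z-VRPR-fmk) had passed without it. Alternatives were the authors' log2 values, no background correction, median scaling, other detection filters, the mean of a gene's probes, robust fits, the block and each array left out.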

Additional observations from a re-analysis of the deposited data

Results flagged for a closer look

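Over 78 groups of 4 vehicle arrays (39 genes in 2 lines), 1 array stood apart by Dixon's criterion, which chance meets in about 1 of 20 groups. HIST1H2BJ read 4.38 on HBL-1 vehicle array 2, while the other 3 HBL-1 vehicle arrays read 4.85 to 4.93. The gap was 85.1% of the group's range.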

How the results depend on the processing

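Over the 26 alternatives run for the line comparison, 27 of the 30 genes higher in TMD8 stayed past the threshold in each that tested them. The exceptions were HIST1H2BH, HIST1H3B and HIST4H4. The same share over all genes called is not given here, so this count does not set the histone genes apart from others. The median difference of the histone genes, 1.05, was 0.38 on the authors' log2 values, 0.46 with no background correction, 0.25 over all 70 genes with no filter and 1.92 over the 12 detected on all arrays (11 genes called, of the 12). It was 1.22 between the MI-2 arrays, a comparison chosen after seeing the data. The cause of these shifts was not tested, save that the filters change which genes are counted. The per-array median differed between the lines by 0.51 on the authors' values, 0.51 with no background correction and 2.35 over the 12. With arrays scaled to their medians, the genes called over the whole table fell from 6531 to 4003 and the histone genes from 30 to 27. That scaling moved the median of all genes under MI-2 to -0.33 in HBL-1 and -0.18 in TMD8, and the histone medians to -0.13 and -0.053. The histone median over both lines turned from 0.05 to -0.09 and that of MI-2 against z-VRPR-fmk from 0.08 to -0.02, where all genes stood at -0.26 and -0.17. The z-VRPR-fmk median turned from -0.06 to 0.02 over the 12 genes detected on all arrays. In another alternative, HIST2H4A was at -0.078 with MI-2 over both lines, where the main model gave 0.20. HIST1H1A turned to 0.031 without HBL-1 vehicle array 2 or without all HBL-1 arrays numbered 2 (from -0.206 at the lowest, without HBL-1 vehicle array 1), and to 0.047 between the MI-2 arrays, where HIST1H2BN was at -0.12. HIST2H2BF was at -0.021, -0.025 and -0.015 without HBL-1 vehicle array 3, HBL-1 vehicle array 4 or TMD8 vehicle array 3. With the replicate number as a block, 31 histone genes and 7399 genes in all differed between the lines, which the numbers do not pair. The numbers do pair the vehicle and MI-2 arrays of a line. For the z-VRPR-fmk arrays, 1 per line, the pairing could not be checked. In the treatment comparisons the block gave 0 histone genes in each. Its medians were -0.02 for MI-2 in HBL-1, 0.09 in TMD8, 0.03 over both and 0.10 for the interaction. They were -0.02 for z-VRPR-fmk and, with the sign turned, -0.01 between the 2 inhibitors. Without HBL-1 vehicle array 1, all genes called between the lines fell from 6531 to 6014 and the histone genes from 30 to 29. Leaving out each array in turn gave 28 to 31 histone genes and medians of 1.03 to 1.13 between the lines. Treatment medians then ran from -0.09 to -0.01 (MI-2, HBL-1), 0.07 to 0.14 (MI-2, TMD8), 0.01 to 0.07 (mean), 0.11 to 0.23 (interaction), -0.06 to -0.02 (z-VRPR-fmk) and 0.04 to 0.10 (MI-2 against z-VRPR-fmk), with 0 calls in each. Many histone probes lay near background in HBL-1, which limits the size of a difference that can be read there.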

Other observations

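Other protein-coding genes lie between the HIST1 genes on chromosome 6, and they were looked at after the histone differences had been seen. By their RefSeq neighbours there were 19, of which 13 were measured. In TMD8 8 of the 13 were higher and 0 lower, with a median of 0.43, where 18.5% of all genes tested were higher. ZNF322A, a zinc finger gene, was higher by 1.08 log2, the butyrophilin genes BTN2A1 and BTN3A3 by 1.002 and 0.69, and TRIM38 by 0.53. SLC17A3 and HFE, the gene of hereditary haemochromatosis, differed by -0.03 and -0.09 and did not pass. Copy number of the region was not measured.

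After group means were removed, the median correlation between pairs of the 39 genes over 14 arrays was 0.08, and 0.16 between pairs of the 12 detected on all arrays, where single pairs ran from -0.67 to 0.88. The pairs among HIST1H1C, HIST1H2AC, HIST1H2BD, HIST2H2AA3, HIST2H2AA4 and HIST2H2AC, 6 genes picked for their high values, ran from 0.52 to 0.88. These points share arrays, and the values are descriptive. The 5 genes of 17544 whose deviations were most like the per-array histone median were UTY (r = 0.91), LOC100134274 (0.91), LOC100133118 (0.89), SLC38A11 (0.86) and C14ORF135 (0.85), a ranking over 14 points from the same arrays that supports no relation.

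Of the 12 histone genes detected on all arrays, 4 (33.3%) have a RefSeq gene length over 1000 bases, against 4 of the other 58 (6.90%). The octamer stood in the promoters of 14 of 29 genes higher in TMD8, of 1 of 8 that were tested and not called, and of 11 of 28 that did not pass the detection filter. By type, it stood in 11 of 16 H2A, 14 of 18 H2B and 1 of 12 H3 promoters, and in none of H1 or H4. The sets differ in type: 8 H2A and 8 H2B genes were higher, while 1 and 2 were tested and not called. Whether the octamer goes with the line difference within a type was not tested.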
